A study of Macaca fascicularis with 6 samples.

Results

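CD4 T cells of the cynomolgus monkey lung were examined, 955 of the 25388 cells that passed quality control in 6 single-cell RNA libraries. The cells were chosen by their own reads: a cell was taken when it held a UMI (a unique molecular identifier, which counts 1 captured RNA molecule) of at least 2 of CD3D, CD3E, CD3G and TRAC, a UMI of CD4 or CD40LG, and none of CD8A, FOXP3, MKI67, TOP2A, MS4A1, C1QA or CSF3R. These 13 genes therefore describe the cells and took no test. Each library came from the dissociated lung of 1 male monkey aged 3 to 5 years. The 3 control monkeys (replicates 1, 2 and 3) were labelled normal and received saline in place of antigen. The 3 asthma monkeys (replicates 8, 10 and 11) were sensitized under the skin with adjuvant-mixed antigen of the roundworm Ascaris suum and then stimulated with it through the nose. The cells were not sorted before capture.

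CD4 T cells recognise peptides on class II molecules and direct other cells through cytokines and through CD40 ligand, which CD40LG encodes. In the airway, Th2 cells make IL4, IL5 and IL13 under the factor GATA3, Th17 cells carry CCR6 and make IL17A and IL22 with RORA among their factors, and Th1 cells make interferon gamma under TBX21. Naive and central memory cells carry CCR7 and recirculate through lymph nodes, regulatory cells depend on FOXP3, and some CD4 T cells hold granzymes, as killer cells do.

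The control libraries gave 171, 144 and 101 CD4 T cells and the asthma libraries 132, 176 and 231. Their summed depth was 645266, 825447 and 500267 UMIs in controls 1, 2 and 3 and 614548, 643721 and 914514 UMIs in asthma 8, 10 and 11. The median cell held 3880 UMIs, with library medians between 3208 (asthma 10) and 4616 (control 2). None of the barcodes of these cells was shared between libraries, against 82 of 25306 distinct barcodes over all kept cells. Doublet scoring placed 13 of the 955 cells (1.36%) among the highest scores of their library, against 866 of all kept cells (3.41%). The gate had already dropped cells with marker genes of other cell types, such as C1QA and MS4A1, so these shares are not like for like.

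Within the gate, 335 cells held CD4 without CD40LG, 318 held CD40LG without CD4, and 302 held both. IL7R, the survival receptor of resting helper cells that the gate did not use, was found in 46.0% of the first set, 62.6% of the second and 59.6% of the third. All 4 T cell genes were found in 552 cells, exactly 3 in 296 and exactly 2, the lowest number allowed, in 107. Just outside that limit, 68 cells had 1 of the 4 genes, and of these 86.8% held LYZ, a lysozyme of myeloid cells, at a median of 9240 UMIs. A further 2087 T cells met every condition except a UMI of CD4 or CD40LG, and 80.1% of them held NKG7, a granule protein of killer lymphocytes, against 30.5% to 43.6% in the cells inside the gate. Another 241 cells were left out only for a UMI of CD8A, and 85.9% of these held NKG7. Cells whose CD8A went undetected could enter the gate. Their part in the granule gene levels and in the GZMK-positive cells below was not tested.

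The level of a gene is given in CPM, the gene's UMIs summed over the cells of a library per 1000000 UMIs of that library, whose total was corrected by TMM (a scaling factor fitted between libraries). CD3D stood between 956 and 1282 CPM and TRAC between 706 and 855 CPM across the 6 libraries. CD4 itself lay between 194 and 255 CPM, and CD40LG between 206 and 374 CPM. CD3D was found in 95.9% of the cells, IL7R in 55.8% and the memory marker CD44 in 85.3%. CD69, an early activation and residency marker, was detected in 87.0% at 1428 to 3993 CPM, and FOS, an immediate-early gene, in 90.9%.

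Markers of other cell types were read beside these values, and their part in the results below was not tested. The gate had already dropped cells with a UMI of MS4A1, a B cell gene, which bears on the other B cell genes. Over all 955 cells, the B cell gene CD79A had 2 UMIs, PAX5 none, BANK1 11, CD79B 14 and MZB1 49, and the immunoglobulin chain IGKC had 98 in 67 cells. Of endothelial genes, CLDN5 had none, VWF 25 in 13 cells and PECAM1, which leukocytes share, 331, and of red cell genes ALAS2 had none and HBB 8. Other markers were concentrated in single cells. A single cell of asthma 10 held 5072 of the 6684 UMIs of SFTPC, the surfactant gene of alveolar epithelium, one held 1950 of the 2613 UMIs of JCHAIN, a plasma cell gene, and one held 123 of the 126 UMIs of CPA3, a mast cell protease. One cell of control 2 held 508 of the 1833 UMIs of APOE, one cell of control 3 held 453 of the 676 UMIs of ITLN1, a mesothelial gene, and one of asthma 11 held 224 of the 463 UMIs of DCN, a fibroblast gene. Summed over 13 macrophage and monocyte genes, of which LYZ was the most abundant, the level was 450.2, 4069 and 522.9 CPM in the controls and 1873, 682.9 and 1566 CPM in the asthma libraries, so that control 2 stood highest. The epithelial list summed to 8060 CPM in asthma 10 and to between 47.2 and 1241 CPM in the other 5.

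The first question was whether CD4 T cells formed a different share of the lung in asthma. They made up 3.79%, 4.10% and 2.48% of the kept cells in controls 1, 2 and 3 and 3.07%, 3.73% and 5.40% in asthma 8, 10 and 11. The groups overlapped, with a mean of 3.46% ± 0.859 (SD, n = 3) in control and 4.07% ± 1.20 (SD, n = 3) in asthma and a two-sided exact permutation p of 0.6, where 3 libraries against 3 cannot go below 0.1. Among all 8667 cells with at least 2 of the 4 T cell genes, the shares were 14.5%, 8.91% and 7.40% in control and 7.08%, 10.3% and 24.7% in asthma (exact permutation p = 0.7). Asthma 11 held the largest share and control 1 the next, and without asthma 11 the difference in the share of T cells turned from 3.76 to -1.59 percentage points.

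**Figure D1:**
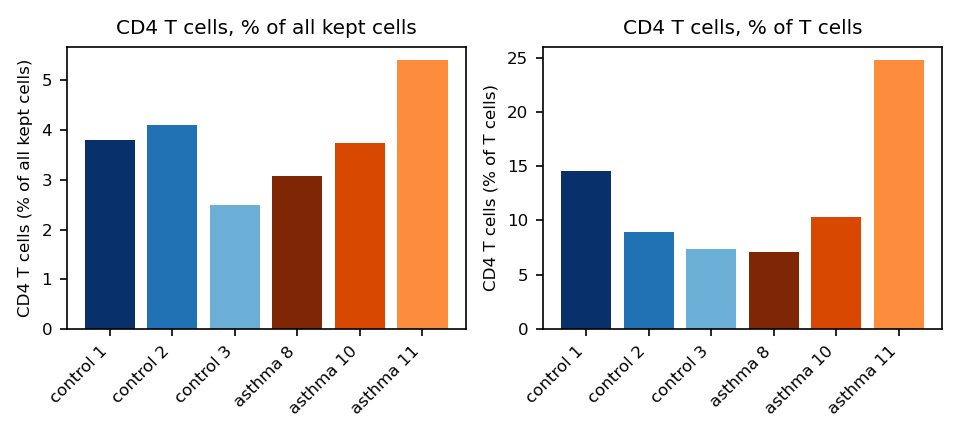
CD4 T cells in each library as a percentage of all kept cells (left) and of cells with at least 2 of CD3D, CD3E, CD3G and TRAC (right), with control libraries in blue and asthma libraries in orange to brown. Each bar is 1 monkey, and control 1 and asthma 11 are the highest on the right, at 14.5% and 24.7%.

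The CD4 T cells were next set against CD8A-positive T cells of the same libraries (3508 cells chosen with CD8A and without CD4, CD40LG and the other genes the gate excluded), which shows what the helper gate holds beyond the genes that defined it. Most tested costimulatory and chemokine receptors, IL7R and the lymphotoxins were higher in CD4 T cells, and every tested member of the cytotoxic list was lower. With the library as a block, 622 of 7003 genes (8.88%) were called higher in CD4 T cells and 403 (5.75%) lower, at an adjusted p under 0.05 and a log2 difference over 0.25. Without TMM scaling the split was 407 higher and 667 lower, and the median of all genes moved by -0.11 on the log2 scale. Without the block the counts were 290 and 236. CPM are scaled within each comparison, so that a library's value can differ slightly from one to the next.

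Among the genes higher in CD4 T cells, CTLA4, an inhibitory receptor for the same ligands as CD28, had 81.4, 24.5 and 57.8 CPM in controls 1, 2 and 3 and 82.6, 25.1 and 30.2 CPM in asthma 8, 10 and 11. In CD8A-positive T cells CTLA4 stood between 1.9 and 6.4 CPM, so that no library overlapped, and the log2 difference was 4.10 ± 0.275 (SE; adjusted p = 1.24e-06). LEF1, a factor of naive and memory T cells, had 34.5 to 93.7 CPM against 3.6 to 16.9 CPM (log2 difference 3.06 ± 0.191; adjusted p = 8.06e-07). IL6R, which encodes the receptor for interleukin 6, was higher by 3.11 ± 0.170 on the log2 scale (adjusted p = 3.72e-07), at 65.9 ± 22.7 against 7.24 ± 1.53 CPM (SD, n = 6). The costimulatory receptors ICOS and CD28 were higher by 2.53 and 2.51, the tumour necrosis factor family receptor TNFRSF4 by 3.69, and SLAMF1, a receptor of activated lymphocytes, by 2.33. CTSL, a lysosomal protease, was higher by 2.9, and PLEKHO1 by 2.18. All of these were higher in 6 of 6 libraries. In FOXP3-positive T cells, CTLA4 and TNFRSF4 stood at 287 and 450 CPM on average, against 50.9 and 35.1 CPM in CD4 T cells. Regulatory cells whose FOXP3 went undetected could enter the gate, and their part in these differences was not tested.

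Of the activation and costimulation list, 8 of the 9 tested members were higher and 1 lower, with a median log2 difference of 1.71 against 0.00 over all genes tested. The exception was CD27, at 112 ± 27.4 against 240 ± 39.0 CPM (log2 difference -1.11). IL7R stood at 611, 317 and 329 CPM in the controls and 357, 332 and 498 CPM in asthma, above the 51.7 to 184 CPM of CD8A-positive cells (log2 difference 2.02 ± 0.151; adjusted p = 2.08e-06). Chemokine receptors were called higher for 5 of 8 tested members and lower for none. CCR6, the receptor for CCL20, was higher by 2.20, CXCR3, which follows interferon-induced chemokines, by 1.37, and GPR183, an oxysterol receptor, by 1.82. Helper cytokine genes split, with LTB (log2 difference 1.52) and LTA (1.62), both lymphotoxins, higher and IFNG (-1.06) and TGFB1 (-0.41) lower. GATA3 was higher by 1.02 and IL4R by 1.06, whereas TBX21 was lower by 1.51 on the log2 scale. Of the naive and central memory list, TCF7 (0.89) was higher beside LEF1, and NOSIP (-0.55) was lower, a call lost in 9 of 15 alternatives.

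All 9 tested cytotoxic genes were lower in CD4 T cells, with a median log2 difference of -2.77. GZMA, a granule protease, stood at 9.0, 25.8 and 95.7 CPM in the controls and 34.9, 89.3 and 2.2 CPM in asthma, against 395 to 1237 CPM in CD8A-positive cells (log2 difference -4.06 ± 0.468; adjusted p = 5.43e-05). CCL5, a chemokine of effector cells, was at 344 ± 177 CPM against 3511 ± 560 CPM in CD8A-positive cells (SD, n = 6). GNLY, which encodes the pore-forming granulysin, differed by -3.76, the killer receptor genes KLRC1 and KLRD1 by -4.20 and -3.76, and PRF1 (perforin) by -2.77. GZMB was lower in all 6 libraries, but its level in CD4 T cells ranged from 217 CPM in asthma 11 to 3311 CPM in asthma 10, against a narrow 6146 to 7696 CPM in CD8A-positive cells (log2 difference -2.59 ± 0.363; adjusted p = 0.000265). NKG7 differed by -2.33, and GZMK, a granzyme of memory cells, by -2.17. Markers of natural killer and gamma-delta T cells moved with these genes. All 4 tested members of that list had negative differences (median -2.39) and 3 were called lower. Among them were TYROBP (-2.60) and KLRF1 (-2.19), each lower in all 6 libraries. The part of such cells in the cytotoxic differences was not tested.

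**Figure D2:**
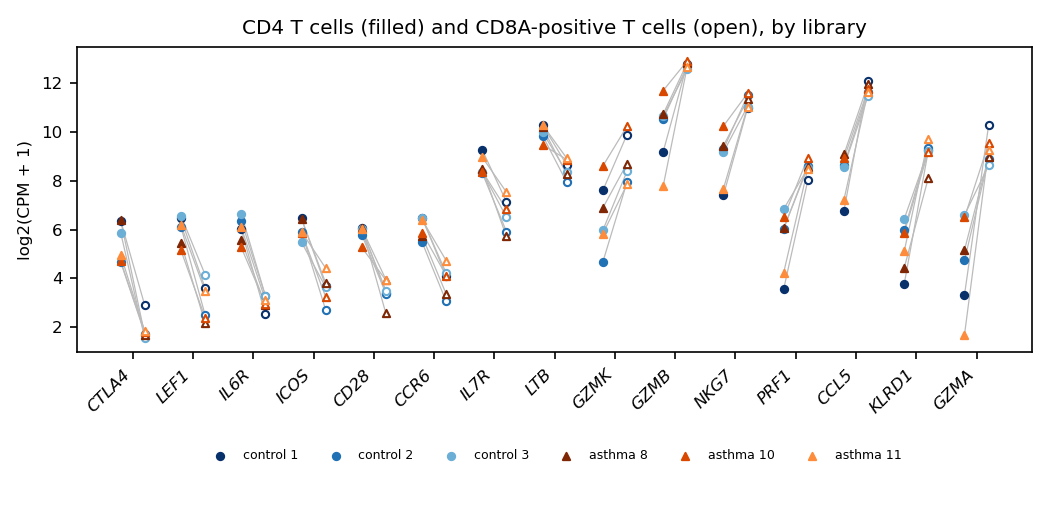
Level of 15 genes in CD4 T cells (filled) and CD8A-positive T cells (open) of each library, as log2 of CPM plus 1; grey lines join the sets of 1 monkey, with circles for control and triangles for asthma. The first 8 genes lie higher in CD4 T cells and the last 7 lower in all 6 libraries.

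Some differences of this comparison came with markers of other cells. All 10 tested macrophage genes had positive differences (median 0.83) and 4 were called, CD68, MRC1, CTSD and CSF1R. CD68 stood at 5.4, 129 and 10.0 CPM in the controls and 119, 15.7 and 33.6 CPM in asthma, was higher than in CD8A-positive cells in 4 of 6 libraries, and had a log2 difference of 1.52 ± 0.324 (adjusted p = 0.00521). Macrophages also transcribe CD4. When CD40LG itself was required, a choice made after seeing the data, the difference of CD68 was 0.03 (adjusted p = 0.986) and that of CTSD 0.37 (adjusted p = 0.061), neither of them called, and MRC1 and CSF1R were too low to be tested. The difference of CTSL was then 2.98 (adjusted p = 3.325e-08). The part of macrophage RNA in these differences was not tested. Airway gene SCGB3A2 had the most negative difference (-5.29), yet its level in CD8A-positive cells ran from 1.1 to 2358 CPM and it was higher in CD4 T cells in 1 of 6 libraries. The stromal genes COL1A1, COL1A2, COL3A1 and VWF were also called lower, each under 13 CPM in CD4 T cells on average.

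Against the 56 FOXP3-positive T cells of the same libraries (5 to 13 a library), 37 of 3271 tested genes (1.13%) were called higher in CD4 T cells and 24 (0.734%) lower. The lower genes included receptors that regulatory cells are known for. TIGIT, an inhibitory receptor, had 175, 106 and 193 CPM in the control libraries and 300, 177 and 130 CPM in the asthma libraries, against 471 to 2172 CPM in FOXP3-positive cells (log2 difference -2.78 ± 0.293; adjusted p = 5.17e-06). TNFRSF18 (GITR) differed by -3.61, TNFRSF4 (OX40) by -3.52, CTLA4 by -2.56 and CD27 by -1.65. IL2RA, the high-affinity chain of the interleukin 2 receptor, differed by -3.26, but no UMI of it was found in the 5 FOXP3-positive cells of asthma 8. The immunoglobulin gene IGKC, a marker of another cell type, was also lower, at 25.5 ± 16.6 against 212 ± 178 CPM (SD, n = 6). Its log2 difference was -3.08 ± 0.399 (adjusted p = 5.58e-05), a call kept in 13 of 13 alternatives, and it was higher in CD4 T cells in 1 of 6 libraries. On the other side, ANXA1, a phospholipid-binding protein of resting lymphocytes, was higher in all 6 libraries, at 1137 ± 213 against 280 ± 70.8 CPM (SD, n = 6; log2 difference 2.01 ± 0.189; adjusted p = 1.23e-06). IL7R (1.55), CD69 (1.02) and IFNG (1.79) were higher as well, calls that were lost in 3, 3 and 8 of 15 alternatives, whereas those of ANXA1 and TIGIT were lost in none of 15. CGA, a hormone subunit, had a difference of -4.94 but was lower in 4 of 6 libraries only, and PRSS57, a granule serine protease, had -3.65 and was lower in all 6. Without the block 5 genes were higher and 18 lower, without TMM 11 and 24, and with DESeq2 12 and 24, so that the excess of higher over lower genes was turned. The total of 61 calls fell to 24 without asthma 10 and to 27 without asthma 11.

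Levels of granule genes differed widely between monkeys of the same group. NKG7 was at 160.4, 598 and 554 CPM in controls 1, 2 and 3 and at 662, 1173 and 199 CPM in asthma 8, 10 and 11. For CCL5 the controls held 103.5, 386 and 367 CPM and the asthma libraries 519, 467 and 145 CPM. CST7, a cystatin of granules, was at 200.1, 474 and 319 CPM and at 446, 598 and 236 CPM. Control 1 and asthma 11 were the lowest library of their group for NKG7, CCL5, CST7 and GZMB, and GZMK (highest control in control 1) and KLRD1 (lowest in asthma 8) departed from this order. Control 1 and asthma 11 were also the libraries in which CD4 T cells made up the largest share of T cells. Summed over 9 granule and killer-cell genes, of which GZMB was the most abundant, the level was 1285 CPM in control 1 and 974 CPM in asthma 11 against 3133 to 6216 CPM in the other 4. GZMB was found in 363 of the 955 cells, and the cell with most held 2.0% of its 5637 UMIs.

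**Figure D3:**
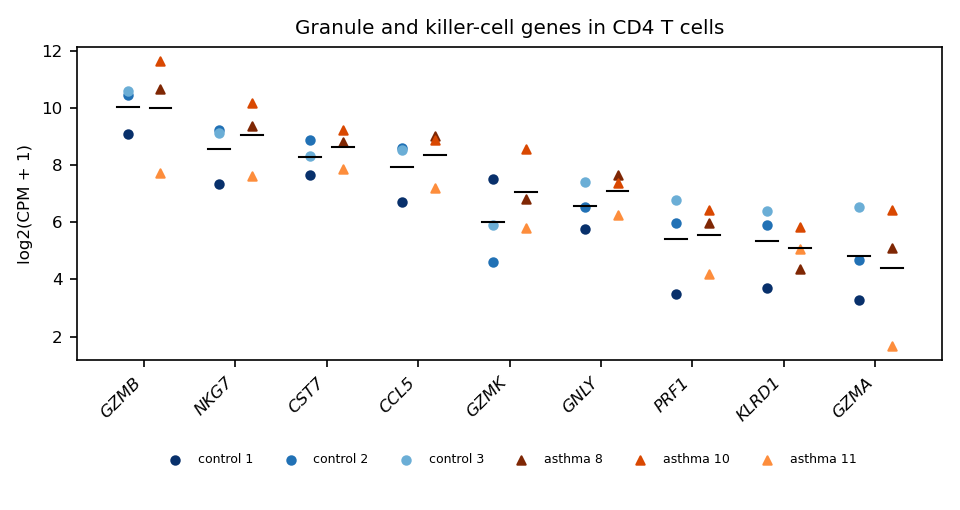
Granule and killer-cell genes in CD4 T cells of each library, as log2 of CPM plus 1, with circles for control and triangles for asthma and a black line at the mean of the 3 libraries of a group. Control 1 and asthma 11 lie at the bottom of their group for GZMB, NKG7, CST7 and CCL5, and the groups overlap for every gene shown.

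Asthma was then compared with control within the CD4 T cells. No gene passed the test: 0 of 5768 (0%) were called by edgeR, against 256 (4.44%) at an unadjusted p under 0.05, and the lowest adjusted p was 0.984. DESeq2 called 1 gene, EPAS1 (adjusted p = 0.0404), with 98 at an unadjusted p under 0.05. A Wilcoxon test across cells, which treats the cells of 1 monkey as independent, called 53 (25 higher and 28 lower). With no filter on low counts edgeR called 123 (52 higher and 71 lower). The 3 asthma libraries lay wholly above the 3 controls for 5.2% of genes and wholly below for 5.11%.

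The granzyme genes GZMB and GZMK did not pass. For GZMB the control libraries held 552, 1412 and 1546 CPM and the asthma libraries 1624, 3208 and 212 CPM, with the highest and the lowest value both in asthma (log2 difference 0.52 ± 0.702; unadjusted p = 0.474, adjusted p = 0.984). For GZMK they held 185, 23.6 and 59.6 CPM and 113, 376 and 54.6 CPM (log2 difference 1.03 ± 0.740; unadjusted p = 0.193, adjusted p = 0.984). Without asthma 10 the difference was -0.35 for GZMB and -0.09 for GZMK. With no filter on low counts GZMK passed edgeR's test (adjusted p = 0.00256), although its log2 difference was 1.02 and its libraries overlapped as before. The unadjusted p of edgeR moved from 0.193 to 1.42e-05 on the same counts of this gene. The cause of that move was not tested.

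Genes of low unadjusted p whose groups did not overlap are given as values, none of them called by edgeR with the filter on low counts. FOSB, an immediate-early factor, had values of 949, 521 and 961 CPM in controls 1, 2 and 3 and 426, 460 and 322 CPM in asthma 8, 10 and 11 (log2 difference -1.01 ± 0.258; unadjusted p = 0.00273). PPP3CC, a catalytic subunit of calcineurin, had a mean of 71.8 ± 4.23 CPM in control and 36.8 ± 5.50 CPM in asthma (SD, n = 3). ING2, a chromatin reader, had 74.1 ± 12.03 against 36.4 ± 6.53 CPM, and ZFAND5, a zinc finger protein, 179 ± 29.1 against 104 ± 17.7 CPM. On the higher side was EPAS1, which encodes the hypoxia factor HIF-2 alpha. The study uses EPAS1 as a marker of epithelial cells and reports it high, with PECAM1, in endothelial cells. EPAS1 had control values of 15.5, 9.92 and 13.5 CPM and asthma values of 137, 27.3 and 57.9 CPM. Of its 185 UMIs, 32 lay in 1 cell of asthma 8. PECAM1 was also highest in asthma 8, at 204 CPM, with 43 UMIs in 1 cell. The part of endothelial or epithelial RNA in the EPAS1 difference was not tested. PERP, a membrane protein of cell junctions, had 23.4 ± 5.14 CPM in control and 50.1 ± 5.47 CPM in asthma, SLA2, an adaptor that dampens T cell receptor signalling, 26.3 ± 6.44 against 55.3 ± 5.09 CPM, VAMP7 (vesicle fusion) 11.7 ± 3.41 against 27.3 ± 4.42 CPM, and SPSB1 7.21 ± 3.26 against 21.6 ± 5.34 CPM.

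**Figure D4:**
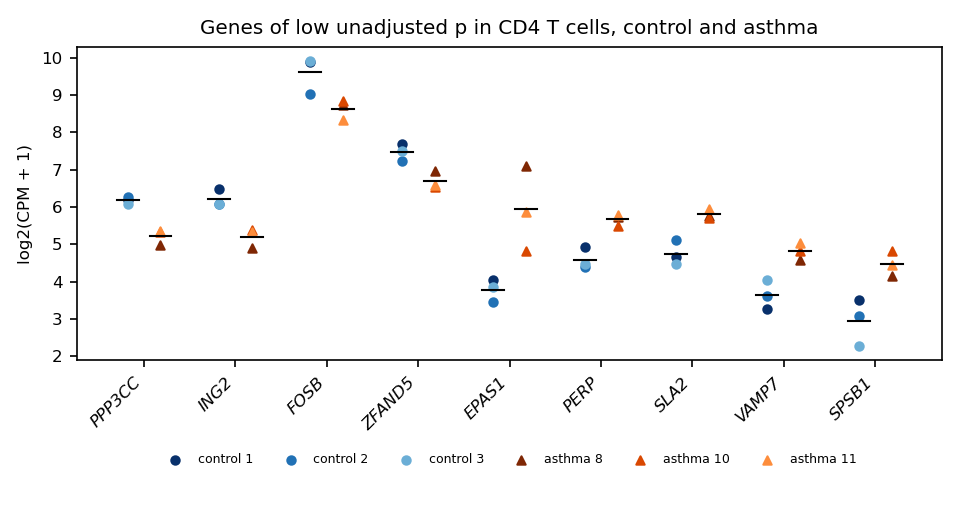
Genes of low unadjusted p whose groups did not overlap in CD4 T cells (4 lower and 5 higher in asthma), as log2 of CPM plus 1, with circles for control, triangles for asthma and a black line at the mean of 3 libraries. They were picked for this separation, and none passed edgeR's test over 5768 genes (adjusted p = 0.984), while DESeq2 called EPAS1.

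By edgeR with the filter, no member of any gene list was called. Of 18 tested immediate-early genes, 16 had a negative difference and 4 lay lower without overlap (FOSB, ZFP36, EGR3 and JUNB), with a median of -0.41. Over all 5768 genes, 2874 had a negative difference, 5.11% lay lower without overlap, and the median was 0.00. NR4A1, an orphan receptor that T cell receptor signals induce, ran from 185 to 338 CPM in the controls and from 123 to 191 CPM in asthma, so that the groups overlapped (log2 difference -0.86; unadjusted p = 0.00701). Heat shock genes had a negative difference for 8 of 9 tested members (median -0.27). The cause of these differences was not tested. Cytotoxic genes had a positive difference in 6 of 9 (median 0.39), T cell receptor signalling genes in 8 of 11 (median 0.12) and interferon-stimulated genes in 6 of 11 (median 0.15). Over 7804 genes, the asthma difference in CD4 T cells departed from that in CD8A-positive T cells for 0 (0%) by edgeR and 0 by DESeq2, with 270 (3.46%) at an unadjusted p under 0.05 by edgeR and 28 by DESeq2. Without control 2 edgeR called 6.

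Helper cytokines were sparse. IL13 was represented by 18 UMIs in 6 cells, of which 11 lay in 1 cell of asthma 8, and IL4 by 13 UMIs in 3 cells, of which 10 lay in 1 cell of that library. IL5 had 2 UMIs and IL9 none. IL17A had 51 UMIs in 13 cells, with 0.585%, 3.47% and 2.97% of cells positive in control and 0%, 0.568% and 1.30% in asthma (exact permutation p = 0.2, 0.54 adjusted over 9 shares). IL22 had 161 UMIs in 14 cells, and control 1 stood apart with 212 CPM against 22.3 or less in the other 5. One cell of control 1 held 50 of them. IL10 was found in 31 cells, TNF in 84 and IL21 in 19. IFNG and LTB, by contrast, were found in 294 and 725 of the cells.

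Shares of CD4 T cells positive for single genes were compared with C1QA-positive cells that lack all 4 T cell genes, which are macrophages by that marker and should lack these genes. CCR6 was found in 18.7%, 17.4% and 20.8% of CD4 T cells in control and 13.6%, 10.8% and 19.5% in asthma, against 0.641% to 2.98% in the C1QA-positive cells, whose median depth was 10811 to 22934 UMIs. GZMK was found in 11.1%, 4.17% and 9.90% in control and 19.7%, 23.3% and 8.66% in asthma, against 0.641% to 3.42%. For both genes the groups overlapped (exact permutation p = 0.3 each, 0.54 adjusted over 9 shares). CCR7 was found in 10 of 416 control cells, 4, 4 and 2 by library, and in 0 of 539 asthma cells. A count of 0 (3 counts of the cells) allows a share of cells with a UMI of up to 2.27%, 1.70% and 1.30% in asthma 8, 10 and 11, which is no limit on cells that express the gene, beside 2.34%, 2.78% and 1.98% measured in the controls and at most 0.271% in the C1QA-positive cells. The exact 95% intervals of the controls reach down to 0.641%, 0.762% and 0.241%, below these limits. The exact permutation p was 0.1, the smallest this design can give, and 0.54 adjusted over 9 shares. CXCR6, a receptor of tissue-resident cells, was found in 9.36%, 7.64% and 7.92% in control and 15.2%, 12.5% and 9.09% in asthma. These groups also overlapped (exact permutation p = 0.2, 0.54 adjusted over 9 shares). GATA3 was found in 25% to 42.1% of cells of a library and TBX21 in 5.63% to 19.7%. IFNG was found in 22.8% to 40.9%, against 1.5% to 9.50% in the C1QA-positive cells. Cells were also thinned to 2000 UMIs and gated again, which gave 72 to 167 CD4 T cells a library. Shallower cells were left out, 494 to 910 of the kept cells and 2 to 14 of the CD4 T cells a library. CCR6 was then found in 4.55% to 14.4% and GZMK in 4.59% to 20.6%. CCR7 was found in 0.885% of control 1 and in no cell of the other 5 libraries, controls 2 and 3 included.

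Of 160 CCR6-positive and 122 GZMK-positive cells, 6 were positive for both, 3 of them in control 3. Pooled over libraries, GZMK was thus found in 3.75% of CCR6-positive cells against 12.8% of all CD4 T cells, with no test of the overlap. In control 3 the order was the other way, with 14.3% of CCR6-positive cells against 9.90% of all its CD4 T cells. Within each library the CCR6-positive cells were compared with the other CD4 T cells, and 25 of 3185 genes (0.785%) were called higher and 17 (0.534%) lower. PERP was higher in all 6 libraries, with 100.4, 63.5 and 36.3 CPM in CCR6-positive cells of controls 1, 2 and 3 and 149, 126 and 137 CPM in asthma 8, 10 and 11, against 10.5 to 35.8 CPM in the others (log2 difference 2.14 ± 0.258; adjusted p = 0.000169). KLRB1 (CD161) and RORA, both known from Th17 cells, were higher by 1.11 and 1.24, in 5 of 6 libraries each. Also higher were CXCR6 (1.53), CTSL (1.23), the oxygen-sensing hydroxylase EGLN3 (1.31), the death receptor TNFRSF25 (1.11), the Notch-pathway factor RBPJ (0.77) and IL2RB (0.76). Not all of these calls were kept in the alternatives that tested the gene: that of IL2RB was lost in 13 of 15, that of CXCR6 in 11 of 13 and that of RORA in 8 of 13, against 1 of 15 for CTSL and none of 13 for PERP. Of IL17A's 51 UMIs, 30 lay in CCR6-positive cells, and of IL22's 161 UMIs, 22. These counts are too low for the test.

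Of 7 tested cytotoxic genes all had a negative difference in CCR6-positive cells and 4 were called lower. GZMB had 176, 430.4 and 834 CPM in the control libraries and 501.4, 11.5 and 21.0 CPM in the asthma libraries, against 269 to 3670 CPM in the other cells, lower within each library (log2 difference -2.31 ± 0.348; adjusted p = 0.000883). NKG7 differed by -2.11, CST7 by -1.37 and GZMK by -2.32, the last call being lost in 8 of 13 alternatives. APOE and ITLN1, genes of macrophages and mesothelium, were also called lower (-2.47 and -3.54), and 67.0% of the UMIs of ITLN1 and 27.7% of those of APOE lay in the single cells named above. The number of calls depended on the fit: 3 genes were higher and 1 lower without the library block, 12 and 5 with DESeq2, and 1 and 3 without control 1 and asthma 11. Leaving out 1 library gave 18 calls without control 1, 24 without control 2 and 19 without asthma 11, against 42 with all 6.

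Set against the other CD4 T cells, the GZMK-positive cells had 7 of 3337 genes (0.21%) called higher and 3 (0.0899%) lower. All 8 tested cytotoxic genes had a positive difference and 5 were called. GZMA was at 61.9, 88.2 and 715 CPM in GZMK-positive cells of the controls and 155, 202 and 15.3 CPM in asthma, above the other cells of the same library in 6 of 6 (log2 difference 3.21 ± 0.418; adjusted p = 0.00153). These levels rest on few UMIs: 1 cell held 26 of the 34 in the GZMK-positive cells of control 3, and those of asthma 11 held 1. CCL5 differed by 1.84, NKG7 by 1.73, KLRD1 by 1.55 and CST7 by 1.44. None of these calls was kept in every alternative: GZMA and CCL5 were lost in 2 each (of 13 and 15), CST7 in 4 of 15, KLRD1 in 7 of 14 and NKG7 in 8 of 15. GZMB differed by 1.6 ± 0.338 and did not pass (adjusted p = 0.0712). IL7R was lower, at 179 ± 64.2 against 421 ± 118 CPM (SD, n = 6; log2 difference -1.22 ± 0.211; adjusted p = 0.0164), as were TNFSF10 (TRAIL, a death ligand, -2.24) and MFHAS1 (-2.18), calls lost in 6, 7 and 4 of 15 alternatives. Only 6 cells carried GZMK in control 2. Without the library block 1 gene was called, without control 1 and asthma 11 none (0 of 3526 tested by edgeR), with 155 at an unadjusted p under 0.05. Leaving out control 2 gave 41 calls, asthma 10 gave 3 and asthma 11 gave 4.

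**Figure D5:**
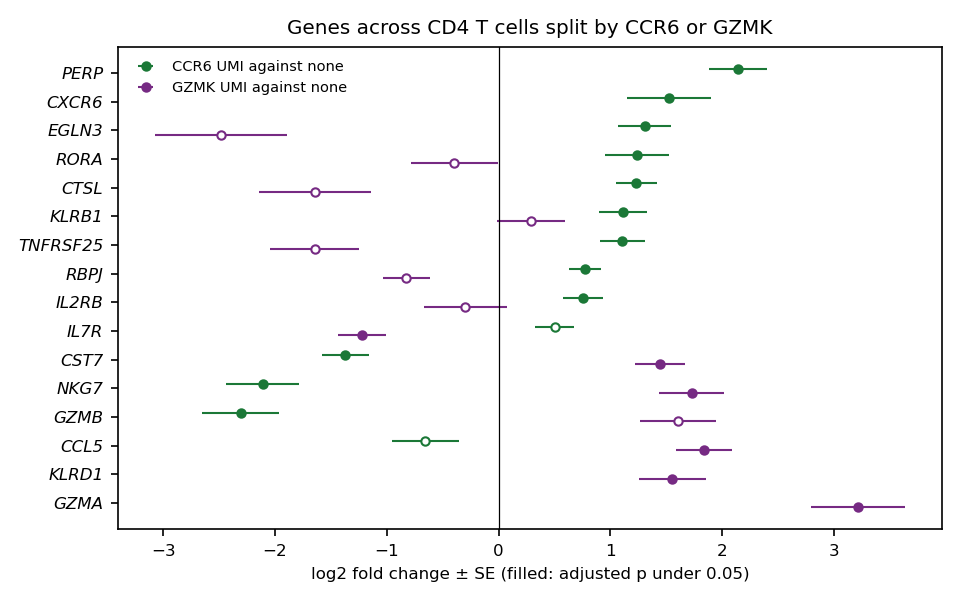
Log2 fold change with its standard error for 16 genes in CD4 T cells with a CCR6 UMI (green) or a GZMK UMI (purple) against the cells without that UMI, over 6 libraries with the library as a block. Filled points have an adjusted p under 0.05. Granule genes lie left of 0 in the CCR6 split and right of 0 in the GZMK split, and a missing point is a gene too low to test in that split.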

How the data were processed

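The deposited files hold UMI counts per gene and cell, one matrix for each of the 6 monkeys, which the authors made from 10x Genomics 3' libraries aligned to the macFas6 genome. The submitters' processing notes name Cell Ranger 2.1.1, the matrix headers name 4.0.0, and the study's methods name another version again, so the one used is not settled. Cells with 501 to 4999 genes and at most 25% of counts from 13 mitochondrial genes were kept (25388 of 35133 barcodes). The members and lists were chosen with earlier results of these data known.

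Counts were summed per library and cell set and tested with edgeR 4.0.16 (quasi-likelihood, TMM, filterByExpr, Benjamini-Hochberg adjustment), with the library as a block where sets came from the same monkeys. A gene was called when its adjusted p was below 0.05 and its log2 fold change exceeded 0.25 in size. The 13 gate genes and the gene that defined a split were not tested. CPM of different comparisons were scaled separately. DESeq2 1.42.0, a Wilcoxon test, no TMM, no filter, 10% mitochondrial counts, Scrublet doublets removed (scanpy 1.11.5), CD4 required and thinning to 2000 UMIs were alternatives, as was leaving out each library. Requiring CD40LG and leaving out control 1 and asthma 11 together were added after seeing the data. Doublets were otherwise kept.

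Shares were compared by two-sided exact permutation over the 20 assignments of 3 against 3 libraries, whose smallest p is 0.1. Intervals and limits cover counting error only. Each library is 1 monkey, so p-values measure the spread between monkeys, and the labels name no batch. Of 276 list genes, 252 had a symbol in the files, where 7528 genes carry none. Named genes were the 10 called genes of largest difference in each direction with at least 50 CPM in the higher set, called list members, GZMB and GZMK, and, where nothing was called, the 5 genes of lowest p in each direction whose groups did not overlap. The most abundant members of each list, the gate genes and the helper cytokines are given as levels, and members behind a count of 5 or fewer and NR4A1 were named after their values were seen. Standard errors are the log2 fold change divided by the root of edgeR's F. Some of these genes are not reported here, though every adjustment included them. The scripts were tested on simulated data.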

Additional observations from a re-analysis of the deposited data

Results flagged for a closer look

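In the comparisons within libraries, 150 log2 ratios of named genes (CPM plus 10 in each set) were searched for 1 library far from the other 5, and 12 stood out by Dixon's test. Chance flags about 1 in 20 groups. Against CD8A-positive T cells, the ratio of CTSL was 2.8 in asthma 8 and 1.89 to 2.19 elsewhere, that of EOMES -3.46 in control 1 and -1.95 to -1.47 elsewhere, and that of CD2 0.0376 in control 2 and 0.565 to 0.809 elsewhere. ZFP36 was at -0.13 in asthma 10 against 0.333 to 0.56, and IFIT1 at -1.46 in control 1 against -0.674 to -0.205. Against FOXP3-positive T cells, which number 5 to 13 in a library, DPP4 was at -0.0542 in control 3 against 2.67 to 3.74 and CD226 at 1.03 in control 1 against 2.61 to 2.98. Each of these 2 genes had 1 UMI in the FOXP3-positive cells of the library that stood apart and 0 in those of the other 5, so that the ratios of the other 5 were set by the added 10 CPM. CD48 was at 2.74 in asthma 10 against 0.371 to 0.972. IL2RA was at 2.59 in asthma 8, where 5 FOXP3-positive cells held no UMI of it, against -3.7 to -2.26. In the CCR6 split asthma 10 stood apart for EGLN3 (2.18 against 0.751 to 1.14), GZMB (-7.42 against -3.17 to -1.16) and NKG7 (-7.08 against -2.91 to -1.19), and this library had 19 CCR6-positive cells. Those cells held 1 UMI of GZMB and 0 of NKG7, so that both ratios lie at or near the limit set by the added 10 CPM. The cause of these departures was not tested.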

How the results depend on the processing

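Asthma against control gave 0 calls with TMM left out, at 10% mitochondrial counts, without doublets, with CD4 or CD40LG required and without any 1 library, but 1 with DESeq2, 123 with no filter on low counts and 53 with the Wilcoxon test across cells. The interaction with CD8A-positive T cells gave 53 with no filter and 0 to 6 when 1 library was left out, the 6 without control 2. Calls against CD8A-positive T cells were 620 with DESeq2, 526 with no replicate block and 791 to 1008 without 1 library, against 1025. Calls against FOXP3-positive T cells, 61 in the report, were 93 without doublets, 26 with CD4 required, 36 with CD40LG required, 36 with DESeq2, 35 without TMM, 364 with no filter, 23 with no replicate block and 24 to 73 without 1 library. The CCR6 split, with 42 calls, gave 25 with CD4 required, 11 with CD40LG required, 17 with DESeq2, 205 with no filter, 4 with no replicate block, 4 without control 1 and asthma 11, and 18 to 52 without 1 library. The GZMK split, with 10 calls, gave 24 with CD40LG required, 18 with DESeq2, 211 with no filter, 1 with no replicate block, 0 without control 1 and asthma 11, and 3 to 41 without 1 library. Leaving out the filter also turned the excess of higher over lower calls. It gave 677 higher and 820 lower against CD8A-positive T cells, 43 and 162 in the CCR6 split and 21 and 190 in the GZMK split. With the filter these were 622 and 403, 25 and 17, and 7 and 3. Against FOXP3-positive T cells the excess was not turned, at 321 and 43 with no filter. The pairing is the monkey, since both sets of a block come from 1 library. Among the share differences, in percentage points, that of IFNG (-1.86) turned to 0.95 after thinning and ranged from -6.88 to 2.11. The share of kept cells (0.606) ranged from -0.0614 to 1.1 and that of T cells (3.76) from -1.59 to 7.23, both lowest without asthma 11. When 1 library was left out, the log2 differences in asthma were -0.35 to 1.03 for GZMB and -0.09064 to 2.16 for GZMK. Both were negative without asthma 10 alone. Without control 1 and asthma 11 together they were 0.70 for GZMB and 2.61 for GZMK, neither of them called by edgeR (adjusted p = 0.885 and 0.817). No split by CCR7 was run, since no asthma cell held it. The cause of these changes was not tested. Several cytokines have fewer than 20 UMIs in all, too few for a comparison.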
